A study of Mus musculus with 16 samples.

Results

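RNA levels of 8 protein-coding genes were followed in adrenal glands of mice: Pik3c2g, Gpc5, Cdh13, Olfr877, Mgat4c, Hephl1, Cyp2f2 and Cyp7a1. They were chosen on these same counts, for levels in female libraries far above those in male libraries in 1 genotype or both, or for a rise in females alone. Levels between the sexes are therefore given as a description, with no test. Each gene was 1 of the 54838 in the count table, found by its Ensembl identifier in the GENCODE M21 annotation, and all 8 were among the 18214 genes with enough counts to be tested. The 16 libraries came from 16 mice of mixed genetic background, 4 weeks of age, as 4 libraries for each pairing of sex with genotype. The genotypes are control and Rspo1 gain-of-function, shortened to GOF. The labels name no other allele or agent, and the promoter that drives Rspo1 in the GOF mice is not given in the sources used here. The series asks how sex shapes expression in control and GOF adrenals. RNA came from whole glands, which hold cortex and medulla, so that fewer cells of a type and less RNA per cell cannot be told apart, and the placement of the 8 genes in the cortex cannot be read from these data.

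Rspo1 codes for R-spondin 1, which is secreted and amplifies WNT signalling by keeping WNT receptors at the cell surface. The adrenal cortex makes steroid hormones from cholesterol, and in young mice its innermost layer is the X-zone, a remnant of the fetal cortex that is lost in males at puberty and in females with pregnancy. Pik3c2g and Akr1c18 are known markers of the X-zone, while Cyp2f2 and Cyp7a1 are best known from the airway and the liver.

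Levels are given as CPM, counts scaled to library sizes that were adjusted with TMM factors, and errors of levels are SDs over 4 libraries. Library totals ran from 31275146 to 43003968 counts. A group with 3 counts or fewer in every library is called at the floor, which is about 0.0686 to 0.0967 CPM, and a fold against such a group is a lower bound against 3 counts per library. Rspo1 stood at 353 CPM or more in every GOF library and at 48.2 CPM or less in every control, and Xist and Ddx3y placed every library on the side of its labelled sex. Some control libraries stood apart. Summed levels of 13 liver genes were 8866 CPM in male control 2 and at most 59.9 CPM elsewhere, and muscle genes were also highest there. The 12 genes of the kidney tubule list added up to 1447 CPM in female control 1, 248 CPM in female control 3 and at most 3.39 CPM elsewhere. Steroidogenic cortex genes were abundant in all groups, with sums of 32516 to 50391 CPM, and the medulla genes, at 4771 CPM or more in every control library, were at 883 CPM or less in every GOF library. The titles carry animal numbers in 4 ranges, which largely go with sex. Only the lowest range holds all 4 groups, with 1 female control, 1 female GOF, 3 male control and 2 male GOF libraries. Values inside that range are given for Mgat4c and Hephl1, whose females there were the lowest of their groups, and for Cyp2f2. The labels do not say what a range stands for. Each of the other ranges holds 1 sex only, so there its part cannot be told apart from that of sex.

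The promoters of 4 genes are shown because their RNA follows 3 different courses: Pik3c2g and Gpc5 are nearly lost in GOF females, Mgat4c rises there, and Cyp2f2 stays high in most female libraries. Sequences are from RefSeq on GRCm38.p6, 250 bases before to 50 bases after an annotated start, written 5′ to 3′ on the strand of the gene. Of the 8 genes, 6 had 1 or more such windows, 10 in all, and for Pik3c2g and Mgat4c the earliest start is printed. The windows are chr6:139613822-139614121 for Pik3c2g, chr14:115091965-115092264 for Gpc5, chr10:101681237-101681536 for Mgat4c and chr7:27119705-27120004 for Cyp2f2, all on the plus strand. Capitals mark matches to the motifs searched.
Pik3c2g: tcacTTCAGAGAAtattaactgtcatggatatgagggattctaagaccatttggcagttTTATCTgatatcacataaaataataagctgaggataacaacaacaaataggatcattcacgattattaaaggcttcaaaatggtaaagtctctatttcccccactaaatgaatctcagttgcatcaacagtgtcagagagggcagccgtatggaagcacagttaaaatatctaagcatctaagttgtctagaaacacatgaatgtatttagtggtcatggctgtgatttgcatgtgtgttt
Gpc5: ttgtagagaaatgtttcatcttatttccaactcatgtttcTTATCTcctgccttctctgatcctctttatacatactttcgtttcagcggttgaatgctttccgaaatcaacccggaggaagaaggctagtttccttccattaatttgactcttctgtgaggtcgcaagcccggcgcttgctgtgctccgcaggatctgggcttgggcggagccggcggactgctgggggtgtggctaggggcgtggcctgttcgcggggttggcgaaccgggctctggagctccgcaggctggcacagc
Mgat4c: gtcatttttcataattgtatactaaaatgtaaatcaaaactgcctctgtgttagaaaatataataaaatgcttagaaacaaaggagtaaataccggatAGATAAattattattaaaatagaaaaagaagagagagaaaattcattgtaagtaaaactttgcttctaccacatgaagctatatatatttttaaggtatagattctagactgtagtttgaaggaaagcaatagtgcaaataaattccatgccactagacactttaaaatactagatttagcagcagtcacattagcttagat
Cyp2f2: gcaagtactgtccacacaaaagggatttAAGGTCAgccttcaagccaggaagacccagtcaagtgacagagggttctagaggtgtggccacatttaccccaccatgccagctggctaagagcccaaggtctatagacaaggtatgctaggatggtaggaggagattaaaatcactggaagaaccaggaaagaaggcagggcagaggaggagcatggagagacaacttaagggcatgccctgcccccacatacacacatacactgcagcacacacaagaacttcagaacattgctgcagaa
Motifs were searched on both strands: AAGGTCA, bound by NR5A1, the steroidogenic factor of the cortex; CTTTGA, bound by the TCF/LEF factors of WNT signalling; TTCNNNGAA, bound by STAT factors; and AGATAA, bound by GATA factors. Pik3c2g held the STAT motif at position 5 of its window and the GATA motif at position 60, on the opposite strand. The GATA motif was at position 41 in Gpc5, on the opposite strand, and at position 99 in Mgat4c. Cyp2f2 held the NR5A1 motif at position 29. No matches overlapped. Of the 32851 promoter windows in the table, 4.72% held the NR5A1 motif, 5257 windows the TCF/LEF motif, 8.30% the STAT motif and 11.2% the GATA motif. None of the 10 windows held CTTTGA, and the windows of Hephl1 and Olfr877 held none of the 4 motifs. Gene counts do not show which start is used, and a match is a string of letters, not a measured binding site.

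The 8 genes did not share 1 pattern. In controls, 6 of 8 had every male library below every female library (Pik3c2g, Gpc5, Olfr877, Mgat4c, Hephl1 and Cyp2f2), and in GOF mice 5 of 8 did (Mgat4c, Cdh13, Hephl1, Cyp2f2 and Cyp7a1). Groups did not overlap, in either direction, for 25.3% of all tested genes in controls and 29.1% in GOF; the genes were picked for these contrasts, so nothing is read from the counts. By the edgeR test described next, 23.4% of all tested genes differed between the sexes in controls and 9.89% were lower in males. Between genotypes, 6 of 8 did not overlap in females, 3 lower and 3 higher in GOF, where 37.8% of all tested genes did not, and 3 of 8 did not overlap in males, all lower, where 33.1% did not. Over all tested genes, 39.6% differed between genotypes in females, 20.6% being lower in GOF, and 36.9% differed in males. All adjusted p-values come from the quasi-likelihood test of edgeR, with Benjamini-Hochberg adjustment across the tested genes. The contrasts share libraries, since each group enters 1 contrast between sexes and 1 between genotypes. The female control libraries that made a gene a member are also the reference for its change in GOF females, and Pik3c2g, Gpc5, Olfr877 and Hephl1 reached the counts needed for testing through that group. The changes of members between genotypes are therefore a description with no p. The same holds in males, whose low levels the choice also used.

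**Figure D1:**
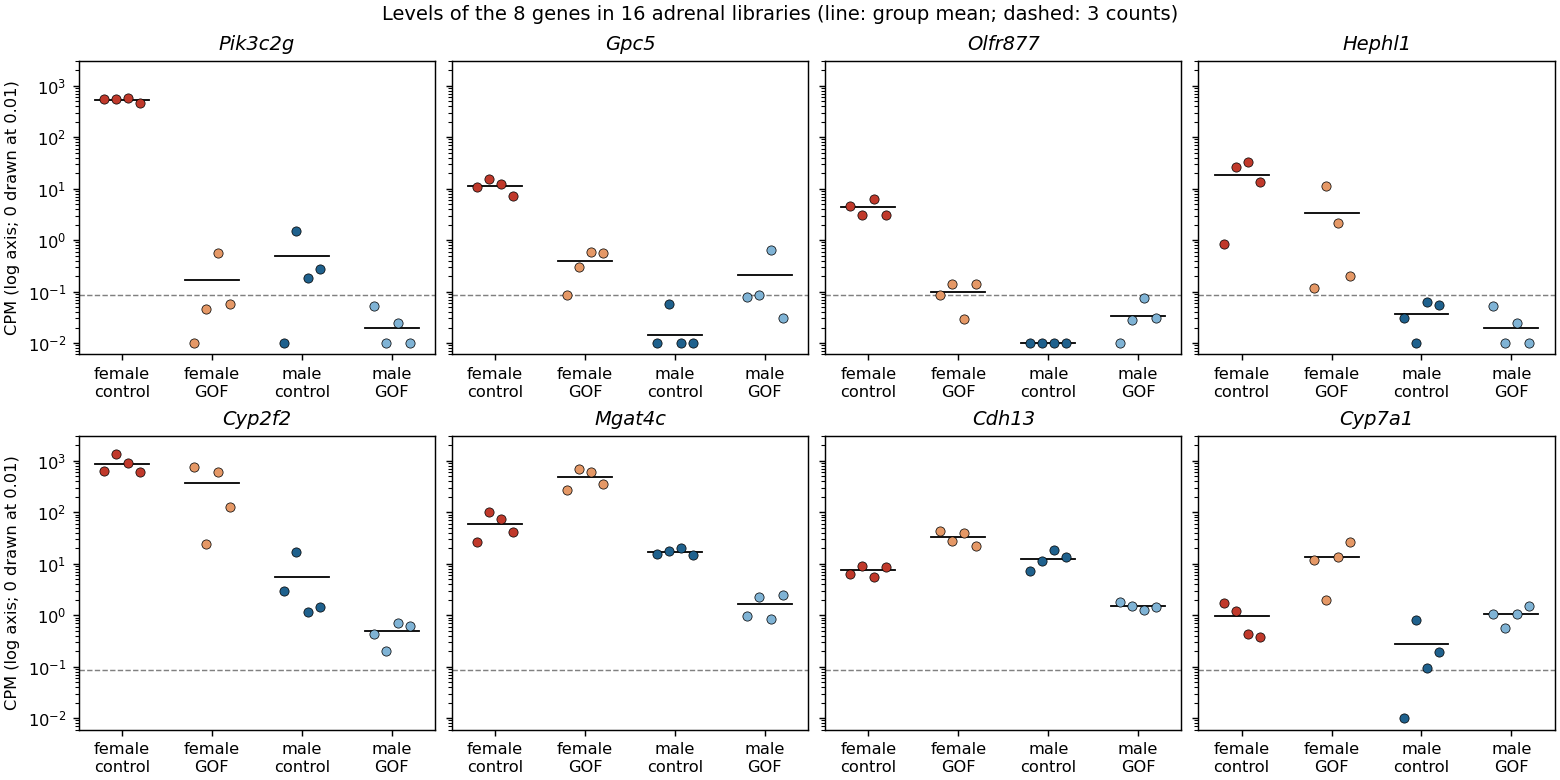
CPM of the 8 genes on a log axis in each library (points, by group), with the group mean as a line, values of 0 drawn at 0.01 and a dashed line at the mean level of 3 counts. Pik3c2g, Gpc5 and Olfr877 are high in the 4 female controls alone, Hephl1 and Cyp2f2 stay above males in female GOF, and Mgat4c, Cdh13 and Cyp7a1 are highest in female GOF.

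Pik3c2g encodes the gamma isoform of the class II phosphoinositide 3-kinases, enzymes that phosphorylate membrane lipids, and is known from liver as well as from the X-zone. The gene (ENSMUSG00000030228, chromosome 6, 139587221 to 139969284, plus strand, GRCm38) spans 382 kb, with up to 24 exons in 15 annotated transcripts. Its levels were 550, 544, 568 and 456 CPM in female controls 1 to 4, and 0, 0.0458, 0.567 and 0.0571 CPM in female GOF. In male controls they were 0, 1.49, 0.185 and 0.272 CPM, and male GOF was at the floor with 2 counts or fewer per library. The female controls stood far above every other library and close to each other, the highest being 1.24 times the lowest. Per gene length, the mean of 236 FPKM ranked 416 among all genes in female controls.

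The mean of Pik3c2g fell from 529 ± 49.8 CPM in female controls to 0.167 ± 0.267 CPM in female GOF (n = 4), a 3162-fold decrease. The fitted log2 change was -11.68 ± 0.744 (SE), and all 4 GOF libraries were below all 4 controls. Female GOF 3 held 19 counts and the others at most 2; without it the group was at the floor and the decrease was at least 6565-fold. In males the mean of 0.487 ± 0.679 CPM in controls was at least 5.89-fold above GOF, and the groups overlapped. Without male control 2, the library with liver transcripts, the bound was 1.84-fold. Male controls were 1087-fold below female controls, or 3477-fold without male control 2.

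The other X-zone genes on the list were Akr1c18, which encodes a progesterone-inactivating enzyme, and Thrb, a thyroid hormone receptor. Akr1c18 stood at 5407 ± 1124 CPM in female controls and at 0.283 ± 0.168 CPM in female GOF, 0.685 ± 0.777 in male controls and 0.0538 ± 0.0185 in male GOF, where no library had over 3 counts. It was the gene most like Pik3c2g over the 16 libraries, with a Pearson r of 0.992 on log2 CPM. Male control 2 was the highest male control for both genes. Thrb fell less, from 194 ± 25.7 to 78.6 ± 24.1 CPM in females, a log2 fold change of -1.31 with an edgeR adjusted p of 6.26e-05, and stood at 35.3 ± 2.90 and 30.4 ± 3.95 CPM in male controls and male GOF. Other subunits of the enzyme family changed by far less than Pik3c2g. For comparison, 19.0% of all tested genes were higher and 20.6% lower in GOF females, and 15.2% were higher and 21.8% lower in GOF males. Of 7 other catalytic subunits, 1 was higher and 1 lower in GOF females, Pik3cg by 0.85 and Pik3c2b by -0.45 on the log2 scale; the call for Pik3c2b was lost in 10 of 27 alternatives, among them those without female control 1, 2 or 4 or female GOF 3 or 4. In GOF males 1 was higher and 1 lower, Pik3cg by 0.90 and Pik3cb by -0.35. With 1 library left out at a time, 1 to 2 were higher and 0 to 2 lower in males; Pik3cd was also higher without male control 2 (edgeR adjusted p 0.0275), and Pik3cb was lost without male control 1, 3 or 4 or male GOF 2, 3 or 4. Of the 6 regulatory subunits, 2 were higher and 1 lower in GOF females, and 1 was higher and 1 lower in GOF males. Those higher were Pik3r2 and Pik3r5 in females, by 0.41 and 1.184, and Pik3r6 in males, by 0.90; with 1 library left out at a time, 1 to 3 were higher in females and 1 to 2 in males, and Pik3r5 was lost without female control 2 or 3, female GOF 2 or 3, or male GOF 2. Pik3r1, the main partner of the class I enzymes, fell in females from 307 ± 16.7 to 95.3 ± 9.02 CPM, and in males from 198 ± 31.3 to 83.2 ± 12.1 CPM (edgeR adjusted p 5.3e-07 and 2.5e-06).

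Gpc5 encodes glypican 5, a heparan sulfate proteoglycan anchored in the outer cell membrane that binds growth factors. The gene (ENSMUSG00000022112, chromosome 14, 115092215 to 116525179, plus strand) spans 1433 kb with up to 8 exons, and 3 annotated genes overlap it on the opposite strand. Its levels were 10.6, 15.4, 12.2 and 7.16 CPM in female controls and 0.0876, 0.297, 0.597 and 0.571 CPM in female GOF. Male controls held 0, 2, 0 and 0 counts, and male GOF libraries 3, 3, 26 and 1 counts. Female controls stood above all others, and 1 male GOF library stood apart from its group.

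The mean of Gpc5 fell 29.2-fold in females, from 11.3 ± 3.41 to 0.388 ± 0.242 CPM (n = 4), with a fitted log2 change of -4.86 ± 0.763 (SE). All 4 GOF libraries were below all 4 controls. Male controls were at the floor and at least 128-fold below female controls. In GOF the male mean of 0.211 ± 0.294 CPM was 1.84-fold below the female mean, and the groups overlapped; without male GOF 3 it was at least 4.56-fold below. Male GOF was at least 2.39-fold above male controls, and all of that lay in male GOF 3: without it both male groups were at the floor.

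Of the other 5 glypicans, 0 were higher and 1 was lower in females, where 39.6% of all tested genes passed. In males 0 were higher and 4 lower, where 36.9% of all tested genes passed and 21.8% were lower. Gpc3 fell in females from 71.4 ± 18.8 to 20.6 ± 5.32 CPM, and in males from 125 ± 13.6 to 31.4 ± 4.14 CPM (edgeR adjusted p 1.23e-05 and 3.75e-06). Gpc6, the next tested gene after Gpc5 on the same strand, 400 kb away, stood at 25.7 ± 2.28 CPM in female controls, 29.6 ± 2.84 in female GOF, 23.9 ± 4.37 in male controls and 10.3 ± 2.56 in male GOF. It was called lower in GOF males and not in GOF females, and its difference in GOF effect between the sexes was -1.42 on the log2 scale, male minus female, with an edgeR adjusted p of 0.00396 for the interaction, a test that 4.21% of all tested genes passed (2.61% with a negative difference). Neighbours were looked up after the values of the members had been seen.

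Olfr877 belongs to the olfactory receptors, the odorant-sensing G protein-coupled receptors of the nose, and has no well-known role in the adrenal. The gene (ENSMUSG00000066749, chromosome 9, 37854269 to 37857320, plus strand) has 2 exons, and reads of similar receptor genes could be split by the counting. Its levels were 4.66, 3.06, 6.40 and 3.08 CPM in female controls and 0.0876, 0.137, 0.0298 and 0.143 CPM in female GOF. No male control library held a count, and male GOF libraries held 0, 1, 3 and 1 counts. A count of 0 in these libraries allows up to 3 counts each, and such floors cover counting error only.

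Female controls stood alone for Olfr877, as for Pik3c2g and Gpc5. The mean fell 43.3-fold, from 4.30 ± 1.59 to 0.0994 ± 0.0526 CPM (n = 4), with a fitted log2 change of -5.36 ± 0.535 (SE). Male controls were at least 48.6-fold below female controls, and in GOF the bound was 1.20-fold. Of 1407 olfactory receptor genes in the table, 306 had a count and 9 reached a mean of 1 CPM in female controls, where Olfr877 ranked 2. Of those 9, 1 had no count in any male control, and it was Olfr877. In female GOF its rank was 60. Of the 45 other olfactory receptor genes tested, 1 was higher and 2 lower in GOF females, and 10 were higher and 1 lower in GOF males. Of all tested genes, 19.0% were higher and 20.6% lower in females, and 15.2% were higher and 21.8% lower in males. Without male control 2 the males had 3 higher and 1 lower of 50 tested. With 1 library left out at a time the females had 0 to 3 higher and 1 to 3 lower, and the males 3 to 13 higher and 1 to 2 lower. The olfactory neuron list, which includes genes with wider expression, summed to 27.2 to 83.6 CPM over all libraries.

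The nearest tested gene before Olfr877, Panx3, lies 185 kb away on the opposite strand and encodes a pannexin channel protein. It held 43, 36, 55 and 22 counts in female controls and at most 2 counts in every other library, so the same group stood alone. Panx3 was named after its values were seen, so no test is given. The next tested gene after it, Olfr889, had its lowest mean in female controls, at 0.0609 ± 0.0448 CPM, and stood at 0.501 ± 0.287 CPM in male controls.

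Cdh13 encodes T-cadherin, a cadherin without the usual inner domain, anchored in the membrane by a lipid and known to bind adiponectin. The gene (ENSMUSG00000031841, chromosome 8, 118283733 to 119324921, plus strand) spans 1041 kb with up to 14 exons. Its levels were 6.43, 8.84, 5.60 and 8.80 CPM in female controls and 43.6, 27.9, 40.0 and 22.1 CPM in female GOF. They were 7.35, 11.05, 18.5 and 13.2 CPM in male controls and 1.77, 1.51, 1.28 and 1.42 CPM in male GOF. Every female GOF library was above every other library, and every male GOF library was below every other one.

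In controls Cdh13 was not concentrated in females: the male mean of 12.5 ± 4.65 CPM was 1.69-fold above the female mean of 7.42 ± 1.65 CPM, and the groups overlapped. The grouping of Cdh13 with genes higher in females holds for GOF mice only. Between genotypes the mean was 4.50-fold higher in GOF females, at 33.4 ± 10.1 CPM, and 8.37-fold lower in GOF males, at 1.50 ± 0.210 CPM (n = 4). Fitted log2 fold changes were 2.17 ± 0.274 (SE) and -3.06 ± 0.291, and in GOF the males were 22.3-fold below the females. Of the 5 annotated genes that overlap Cdh13, 4 lie on the opposite strand.

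Of the 22 other cadherins on the list, 18 were tested. In GOF females 0 were higher and 8 lower, with a median log2 fold change of -0.82 beside 0.05 over all tested genes. In GOF males 2 were higher and 12 lower, with a median of -1.89 beside 0.01. Of all tested genes, 19.0% were higher and 20.6% lower in females, and 15.2% and 21.8% in males. Cdh16 is also in the kidney tubule list. Without female control 1, 7 of 18 were lower in females, and without female controls 1 and 3 and male control 2, 7 of 17. With 1 library left out at a time, 0 to 1 were higher and 7 to 9 lower in females, and 1 to 3 higher and 12 to 13 lower in males; Cdh24 was not called in males without male GOF 3. Cdh19, a cadherin of glial and Schwann cells, fell in females from 6.20 ± 1.50 to 0.819 ± 0.433 CPM, and in males from 14.6 ± 7.02 to 1.14 ± 0.274 CPM (edgeR adjusted p 4.95e-05 and 6.14e-06). Mean sums of several other cell types moved in the same groups. Macrophage genes were higher in GOF, at 136 and 200.3 CPM in control and GOF females and at 260.1 and 423 CPM in control and GOF males. Endothelial genes were at 505 and 437 CPM in females and at 572 and 678 CPM in males. Adipocyte genes were at 2023 and 635 CPM in control and GOF females and at 3179 and 416 CPM in control and GOF males. Zona glomerulosa genes were at 784 and 439 CPM in females and at 1015 and 343 CPM in males, and medulla genes were lower as given above. The part of these in the cadherin counts was not tested. Cdh2, or N-cadherin, was at 129 ± 15.5 CPM in female controls and 134 ± 26.7 in female GOF, while it fell from 75.4 ± 11.3 to 28.1 ± 4.86 CPM in males. Its GOF effect differed between the sexes by -1.47 on the log2 scale, with an edgeR adjusted p of 0.00226.

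**Figure D2:**
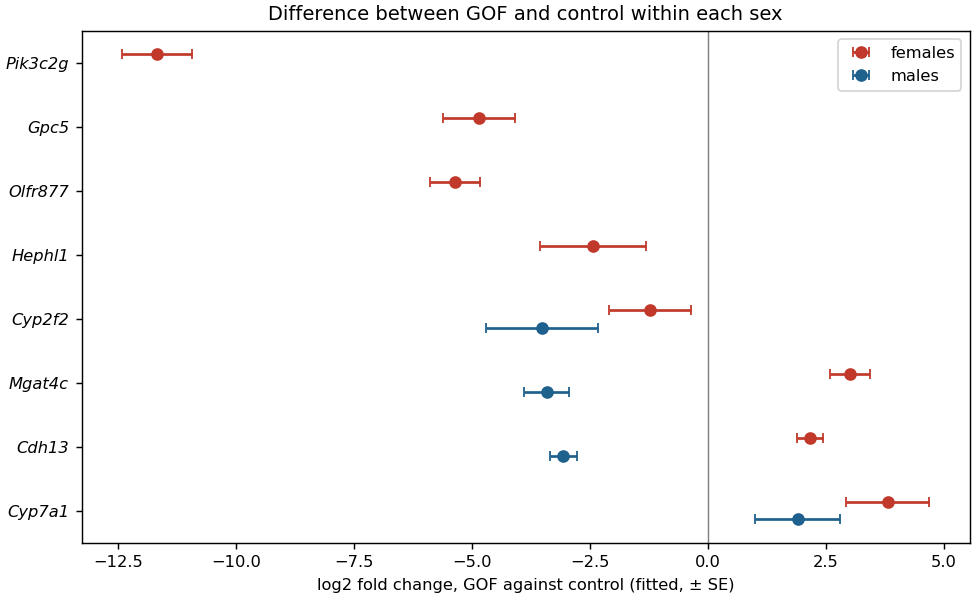
Fitted log2 fold change of GOF against control with its SE (bars) for each gene, in females (red) and males (blue), omitting males where 1 or both groups are at the floor. Mgat4c and Cdh13 lie above 0 in females (3.02 and 2.17) and below 0 in males (-3.41 and -3.06), while Cyp7a1 lies above 0 in both.

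Mgat4c encodes a homologue of the Golgi enzymes that add an antenna of N-acetylglucosamine to N-linked glycans. The gene (ENSMUSG00000019888, chromosome 10, 101681487 to 102391469, plus strand) spans 710 kb with up to 9 exons in 16 annotated transcripts, 1 of whose promoters is printed above. Its levels were 26.4, 99.3, 73.3 and 40.6 CPM in female controls and 273, 694, 613 and 356 CPM in female GOF. They were 15.3, 18.0, 20.1 and 14.8 CPM in male controls and 0.980, 2.26, 0.826 and 2.41 CPM in male GOF. The 4 groups did not overlap anywhere, in the order female GOF, female control, male control, male GOF.

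The mean of Mgat4c was 8.08-fold higher in GOF than in control females, 484 ± 201 against 59.9 ± 32.8 CPM, and 10.5-fold lower in GOF than in control males, 1.62 ± 0.832 against 17.0 ± 2.47 CPM (n = 4). Fitted log2 fold changes were 3.02 ± 0.424 (SE) and -3.41 ± 0.476. Males were 3.51-fold below females in controls and 299-fold below them in GOF. By mean FPKM the gene moved from rank 3947 in female controls to rank 315 in female GOF. Female control 1 and female GOF 1, the only females in the lowest range of animal numbers, were the lowest of their groups; within that range the values were 26.4 CPM in the female control against 15.3 to 20.1 CPM in male controls, and 273 CPM in the female GOF against 0.980 and 2.26 CPM in male GOF.

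Of the 7 other N-glycan branching genes, 0 were higher and 4 lower in females, where 19.0% of all tested genes were higher and 20.6% lower, and 2 were higher and 4 lower in males, where 15.2% were higher and 21.8% lower. Mgat5b, a branching enzyme of brain, fell in females from 2.09 ± 0.511 to 0.739 ± 0.104 CPM, and in males from 4.01 ± 1.75 to 0.304 ± 0.0744 CPM (edgeR adjusted p 0.0011 and 1.3e-06). Mgat4a, the closest studied relative, fell in females from 17.7 ± 4.11 to 10.3 ± 2.12 CPM, and in males from 16.4 ± 2.04 to 10.3 ± 1.54 CPM (edgeR adjusted p 0.00302 and 0.00897). Mgat3 and Mgat5 were the other ones lower in both sexes, by -1.66 and -0.57 on the log2 scale in females and by -1.28 and -0.87 in males. Mgat2 and Mgat4b were higher in males, by 0.42 and 0.57. The call for Mgat4b was lost without male control 1, 2 or 3, male GOF 1, 3 or 4, or female GOF 3 (edgeR adjusted p 0.0555 to 0.135).

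Hephl1 encodes zyklopen, a copper-containing ferroxidase of the membrane that oxidizes iron, related to ceruloplasmin and hephaestin. The gene (ENSMUSG00000031936, chromosome 9, 15051841 to 15112108, minus strand) spans 60.3 kb with 20 exons in 1 annotated transcript. Its levels were 0.835, 26.6, 33.3 and 13.7 CPM in female controls and 0.117, 11.3, 2.15 and 0.200 CPM in female GOF. Both male groups were at the floor, with 2 counts or fewer in each library. Female libraries differed widely among themselves: the highest was 39.9 times the lowest in controls and 96.3 times in GOF.

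Means of Hephl1 were 18.6 ± 14.4 CPM in female controls and 3.43 ± 5.30 CPM in female GOF (n = 4), a ratio of 5.43, and the groups overlapped. The log2 difference was -2.43 ± 1.12 (SE), given with no p, as for the genes above. With 1 library left out at a time the ratio ran from 4.00, without female control 3, to 22.6, without female GOF 2. Male controls were at least 210-fold below female controls and male GOF at least 41.5-fold below female GOF, or at least 9.94-fold without female GOF 2. As for Mgat4c, female control 1 and female GOF 1 were the lowest of their groups, and the female values in that range of animal numbers were 0.835 and 0.117 CPM, both above the males. In female GOF the 4 libraries stood in the same order for Mgat4c and Hephl1, with replicate 2 highest, then 3, 4 and 1.

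The 3 related genes of iron handling were called in both sexes, where 39.6% of all tested genes were called in females and 36.9% in males; 2 of these calls, named with their values, were lost with some libraries left out. Cp, or ceruloplasmin, fell in females from 70.2 ± 9.04 to 26.1 ± 5.08 CPM, and in males from 174 ± 54.8 to 71.5 ± 27.8 CPM, with log2 fold changes of -1.43 and -1.28 (edgeR adjusted p 0.000939 and 0.00193). Heph, the intestinal ferroxidase, fell by 0.51 in females and by 0.38 in males, and the call in males was lost in 11 of 27 alternatives, among them those without male control 3 or 4 or male GOF 2, 3 or 4. Slc40a1, the iron exporter ferroportin, rose in females from 19.1 ± 1.38 to 42.2 ± 12.4 CPM, and in males from 29.7 ± 12.2 to 88.6 ± 51.2 CPM (edgeR adjusted p 0.0257 and 0.00451), and its call in females was lost in 10 of 27 alternatives, among them those without female control 1, 3 or 4 or female GOF 2, 3 or 4. None of these 3 was absent from males, and Cp was higher in males than in females in both genotypes, by 1.31 and 1.45 on the log2 scale. Both calls of Cp between the sexes were lost with the range of animal numbers as a covariate. The call in controls was also lost without female controls 1 and 3 and male control 2. Panx1, 6.36 kb from Hephl1 on the same strand, was measured at 13.0 ± 2.21, 20.4 ± 6.61, 11.3 ± 1.91 and 9.18 ± 1.92 CPM in female control, female GOF, male control and male GOF.

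Cyp2f2 encodes a cytochrome P450 known for oxidizing naphthalene in airway club cells. The gene (ENSMUSG00000052974, chromosome 7, 27119909 to 27133660, plus strand) spans 13.8 kb with up to 10 exons, and its promoter held the only NR5A1 match of the 10 windows. Its levels were 642, 1323, 909 and 612 CPM in female controls and 749, 23.9, 594 and 125 CPM in female GOF. They were 2.98, 16.7, 1.17 and 1.44 CPM in male controls and 0.424, 0.200, 0.700 and 0.604 CPM in male GOF. Female libraries were all above male ones, but the female GOF libraries fell 2 near the controls and 2 far below. The club cell list (Scgb1a1, Scgb3a2, Scgb3a1) summed to at most 0.154 CPM in any library.

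Means of Cyp2f2 were 872 ± 329 CPM in female controls and 373 ± 353 CPM in female GOF (n = 4), a ratio of 2.34 with overlapping groups, or 3.52 without female GOF 1. The fitted log2 difference was -1.22 ± 0.860 (SE). In the lowest range of animal numbers the order was reversed, with the female GOF library at 749 CPM and the female control at 642 CPM. By mean FPKM Cyp2f2 ranked 70 in female controls and 245 in female GOF. Male controls, at 5.58 ± 7.47 CPM, were 156-fold below female controls, or 467-fold without male control 2, and male GOF was 774-fold below female GOF, or 514-fold without female GOF 1. In males GOF was 11.6-fold below control, at 0.482 ± 0.220 CPM, with a fitted log2 change of -3.52 ± 1.183 (SE), and the groups did not overlap. Without male control 2, where liver genes were high, the ratio was 3.87 and the fitted log2 difference -1.93.

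An antisense gene, Gm15883, overlaps Cyp2f2 and was also far higher in females than in males: its means were 2.77 ± 1.34 CPM in female controls, 3.26 ± 3.25 in female GOF, 0.0581 ± 0.0413 in male controls and 0.0226 ± 0.0453 in male GOF. Its levels in female controls 1 to 4 were 4.28, 1.19, 2.25 and 3.37 CPM, in nearly the opposite order to Cyp2f2. In female GOF they were 7.95, 0.503, 2.63 and 1.97 CPM, in the same order as Cyp2f2. Whether the counting used strand is not given in the sources used here, so reads of the pair cannot be told apart. Of the 13 other genes of the Cyp2 cluster on the list, 3 were tested. Cyp2s1 stood at 2.69 ± 1.21, 2.22 ± 0.540, 4.26 ± 2.27 and 2.16 ± 0.606 CPM in female control, female GOF, male control and male GOF, and Cyp2t4 at 0.617 ± 0.136, 0.842 ± 0.212, 1.12 ± 0.269 and 1.40 ± 0.328 CPM. Both had higher means in male than in female controls. In GOF females 0 of the 3 were higher and 1 was lower (Cyp2b10, with no count in female GOF), where 20.6% of all tested genes were lower. In GOF males 0 were higher and 2 lower, where 21.8% of all tested genes were lower. These counts did not hold with 1 library left out at a time: in males 0 to 5 were lower, with 1 lower without male control 2, and in females 0 were lower without female control 2.

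Cyp7a1 encodes cholesterol 7-alpha-hydroxylase, the rate-limiting enzyme of bile acid synthesis in the liver. The gene (ENSMUSG00000028240, chromosome 4, 6265612 to 6275633, minus strand) spans 10.02 kb with up to 6 exons. Its levels were 1.75, 1.23, 0.431 and 0.381 CPM in female controls and 11.7, 1.99, 13.5 and 26.5 CPM in female GOF. They were 0, 0.818, 0.0926 and 0.190 CPM in male controls and 1.03, 0.571, 1.05 and 1.54 CPM in male GOF. Female GOF libraries were above all others, by little for replicate 2, and the highest male control was male control 2.

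The mean of Cyp7a1 was 14.2-fold higher in GOF than in control females, 13.4 ± 10.1 against 0.947 ± 0.661 CPM (n = 4). In males it was 3.81-fold higher, 1.05 ± 0.395 against 0.275 ± 0.370 CPM, with overlap through male control 2, and 11.1-fold higher without that library. Fitted log2 fold changes were 3.82 ± 0.880 (SE) in females and 1.91 ± 0.899 in males, so the higher level in GOF was not seen in females alone. Males were 3.44-fold below females in controls, with overlap, and 12.8-fold below them in GOF. Without male control 2 the ratio in controls was 10.04. Summed levels of the liver list were 54.7, 6.87, 34.2 and 3.26 CPM in female controls and 1.29, 7.504, 17.2 and 4.40 CPM in female GOF; their part in the level of Cyp7a1 was not tested.

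Of 13 other bile acid genes on the list, 10 were tested, and none was called higher in GOF: 5 were lower in females and 9 in males, where 20.6% and 21.8% of all tested genes were lower. Without male control 2, the count in males was 5. Scp2, a sterol carrier of the peroxisome, fell in females from 360 ± 16.6 to 227 ± 20.3 CPM, and in males from 395 ± 44.2 to 220 ± 14.3 CPM (edgeR adjusted p 4.62e-05 and 4.68e-06). Cyp7b1, which starts the alternative pathway, fell in females from 3.30 ± 0.384 to 0.952 ± 0.412 CPM, and in males from 5.23 ± 0.841 to 1.47 ± 0.527 CPM (edgeR adjusted p 0.000472 and 0.000358). Cyp8b1 and Slc27a5, both in the liver list, were among the 9 lower in males, with control means of 1.41 ± 2.44 and 14.05 ± 27.5 CPM. Akr1d1, a steroid 5-beta-reductase, had levels apart from the rest of the list: 1924 ± 433 CPM in female controls, 1174 ± 253 in female GOF, 4.35 ± 8.56 in male controls and 0.147 ± 0.211 in male GOF. Its decrease in males (edgeR adjusted p 0.0277), with male control 2 at 17.2 CPM and the other male controls at 0.154 CPM or less, turned to a log2 difference of 1.02 without male control 2. Of the 8 regulators of Cyp7a1 on the list, Fgfr4, the receptor through which gut FGF represses it, rose in females from 81.0 ± 12.4 to 136 ± 31.6 CPM, and in males from 76.6 ± 5.92 to 160 ± 23.2 CPM. Klb, its co-receptor, fell in females from 8.51 ± 2.16 to 1.63 ± 1.12 CPM, and in males from 12.7 ± 2.96 to 0.794 ± 0.250 CPM. In all, 1 regulator was higher and 2 lower in GOF females, and 2 were higher and 1 lower in GOF males. Of all tested genes, 39.6% were called in females and 36.9% in males. The other regulator called lower in females was Hnf4a, a factor of liver and kidney tubule, at 69.6 and 9.78 CPM in female controls 1 and 3, the libraries with kidney transcripts, and at 0.161 CPM or less in the other 2. Without female control 1 its edgeR adjusted p was 0.0639, and without those 2 libraries and male control 2 it was 0.617.

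**Figure D3:**
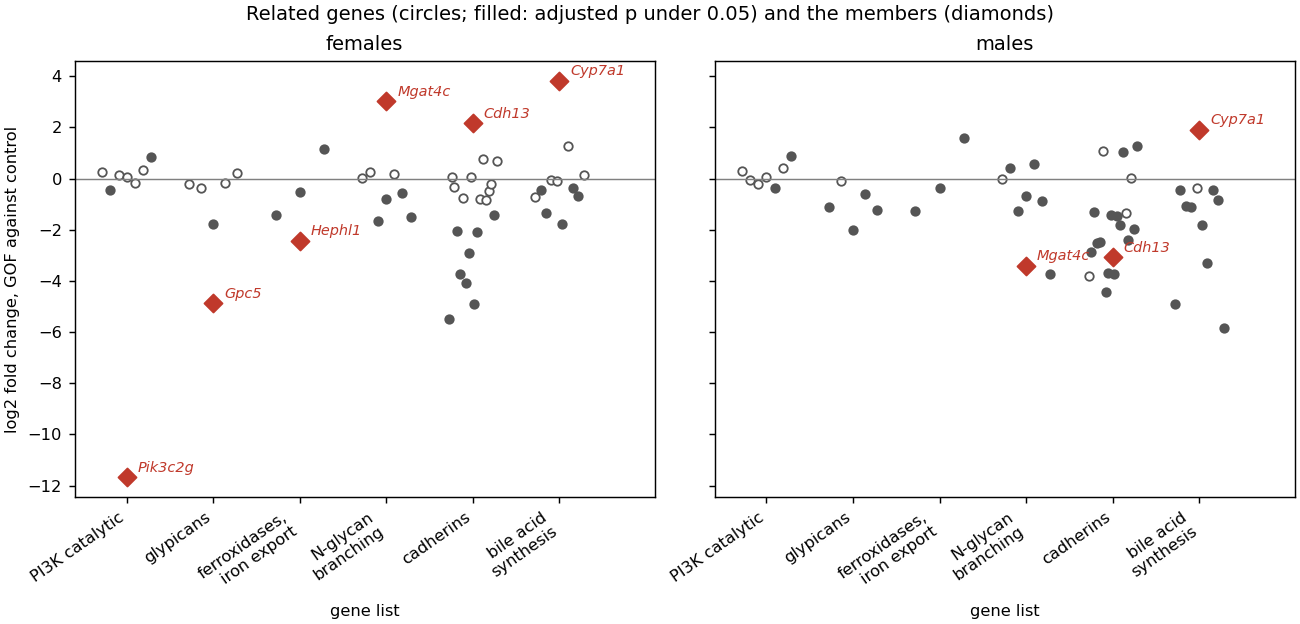
Log2 fold change of GOF against control in females and males for 6 lists of related genes (circles, filled where the adjusted p is under 0.05) and the listed member of each family (red diamonds, filled regardless of the test and omitted where a male group is at the floor). Pik3c2g and Gpc5 lie below the related genes in females, and Mgat4c, Cdh13 and Cyp7a1 above them.

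The female libraries were also compared with each other. Pik3c2g varied least among female controls, where its highest library was 1.24 times its lowest, against 1.58 for Cdh13, 2.09 for Olfr877, 2.15 for Gpc5, 2.16 for Cyp2f2, 3.76 for Mgat4c, 4.59 for Cyp7a1 and 39.9 for Hephl1. Female control 1 was lowest for Mgat4c and Hephl1, highest for Cyp7a1, and in the middle for Pik3c2g. Female GOF 2 was highest for Mgat4c and Hephl1 and lowest for Cyp2f2 and Cyp7a1. Some pairs of genes shared the whole order of the 4 libraries of a group, for example Mgat4c and Hephl1 in female GOF and Gpc5 and Cyp2f2 in female controls. Mgat4c and Cyp2f2 in female GOF had their highest and lowest libraries exchanged.

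**Figure D4:**
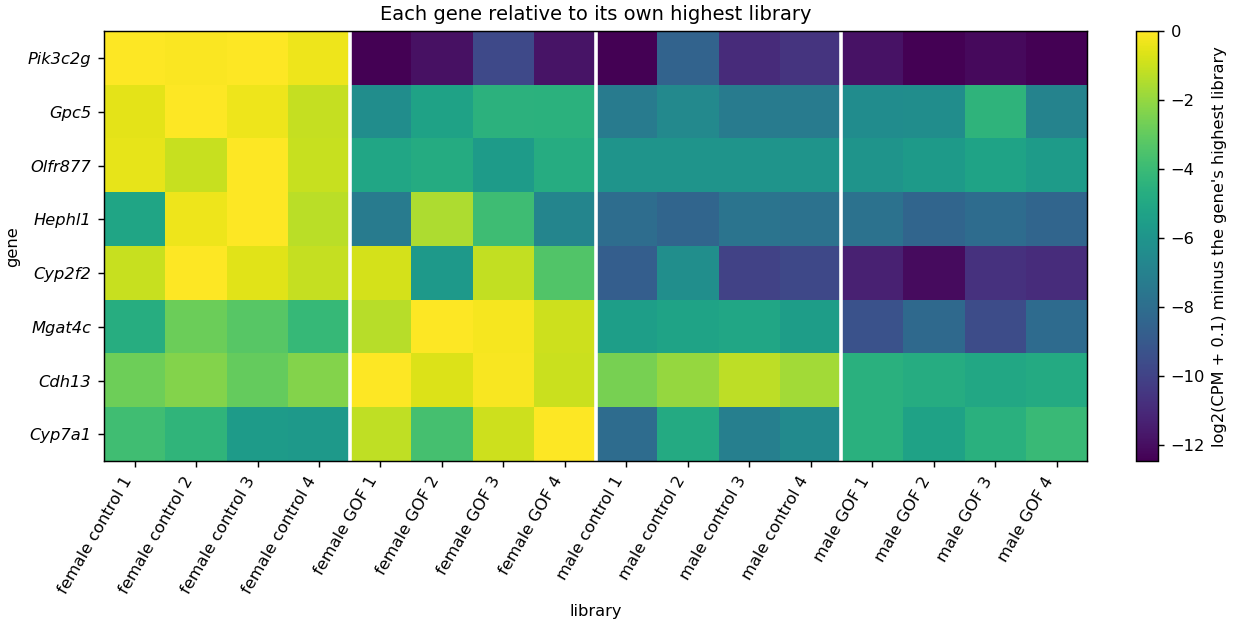
Level of each gene (rows) in each of the 16 libraries (columns) as log2(CPM + 0.1) relative to its own highest library, which is 0. Pik3c2g, Gpc5 and Olfr877 are bright in female controls only, and female GOF 2 is bright for Mgat4c and Hephl1 but not for Cyp2f2.

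For each member the 5 genes with the most similar log2 CPM over the 16 libraries were found. The points share libraries and fall into 4 groups, so these are descriptions with no p. After Akr1c18, Pik3c2g was most like Fetub (r 0.967), which stood at 248 ± 50.1 CPM in female controls and 2.30 ± 0.495 in female GOF, and Mtss1, Ptprk and Ssu2. Gpc5 and Olfr877 had Rpl7a-ps4, a ribosomal pseudogene, and Dmd, which encodes dystrophin, in common; Dmd stood at 146 ± 13.1 CPM in female controls and 73.8 ± 3.75 in female GOF. The other genes like Gpc5 were Ehf, Lipn and Tmem139, and the others like Olfr877 were Pdlim5, Cd1d1 and Smpdl3b. Cd1d1, which presents lipids to T cells, went from 558 ± 71.7 to 70.4 ± 2.32 CPM in females.

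Mgat4c was most like Tmem47 (r 0.979), at 50.2 ± 9.42 CPM in female controls, 72.0 ± 6.32 in female GOF, 40.7 ± 2.80 in male controls and 28.1 ± 2.64 in male GOF, and Ykt6, Tnpo3, Lrfn3 and Anp32e. Cdh13 was most like Cep126 (r 0.926), Peg10, Tbc1d32, Akt2 and Sbspon; Peg10, an imprinted gene, stood at 493 ± 57.3, 878 ± 118, 517 ± 32.6 and 344 ± 89.7 CPM in the same order of groups. These genes followed the order of the groups with much smaller differences than Mgat4c and Cdh13. Hephl1 was most like Rfk (r 0.955), the kinase that makes flavin cofactors, at 593 ± 358 CPM in female controls and 220 ± 121 in female GOF, and Ankrd63, En2, Il13ra1 and A2m. Cyp2f2 was most like Nudt11 (r 0.962), Tmem141, Ankrd55, Fam210a and Echdc3. Cyp7a1 was most like Pot1a (r 0.937), Prkd3, Dclre1a, Zfp518a and Ahr. These sets moved with the measure: with Spearman's rho instead, 4 of 5 genes were shared for Mgat4c, 2 for Pik3c2g, 1 each for Cdh13, Hephl1, Cyp2f2 and Cyp7a1, and 0 for Gpc5 and Olfr877. Without female controls 1 and 3 and male control 2 the sets of Pik3c2g, Gpc5, Olfr877, Cdh13, Hephl1 and Cyp7a1 also moved.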

How the data were processed

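RNA was measured by paired-end 150 bp Illumina sequencing of NEBNext Ultra libraries, for which RNA had to reach an integrity number of 7.0, per the labels' protocols. The submitters' processing notes name Bowtie2 2.2.3, TopHat2 2.0.12, HTSeq 0.6.1 and DESeq 1.18.0; the genome build and the use of strand are not given in the sources used here. The deposited counts are whole reads per Ensembl gene, without normalization, and the deposited FPKM values are scaled by the authors to gene length and library total. Symbols and coordinates come from GENCODE M21 (GRCm38).

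Tests on the counts used edgeR 4.0.16 (R 4.3.3; robust quasi-likelihood), in 1 model of the 16 libraries with a mean per group, TMM factors and filterByExpr, which kept 18214 of the 34196 genes with a count. Benjamini-Hochberg adjustment covered every tested gene, and the threshold was 0.05. The contrasts were GOF against control in each sex, males against females in each genotype, and their interaction. The members and lists were chosen with earlier results of these data known. The design planned p-values for the genotype contrasts of 5 members; none is printed, since the members were chosen on the levels of the same libraries. The genes named are the members, the 5 most like each by Pearson's r on log2 CPM (prior count 2) without clone names, and genes of the related lists. Neighbours and 1 or more genes per list were singled out after their values were seen. On simulated counts for GOF against control in females (18214 genes, 200 changed), 86% of genes changed by 1 and 99% of genes changed by 2 on the log2 scale were recovered, and 3.14% of the calls were unchanged genes. The simulation gave every gene the same dispersion (spread between libraries) and changed only genes above a minimum mean count. Its figures are therefore not the power or error rate of the calls reported here. Libraries of 1 group were compared in 24 pairs, and none was a copy of another (lowest chi-square over its degrees of freedom, 26.8). Each library is from another mouse.

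Alternatives were RLE or upper-quartile factors, DESeq2 1.42.0, fits without a filter or with a minimum of 10 counts per library, fits of the compared groups alone, limma 3.58.1 on log2(FPKM + 1) or log2(FPKM + 0.1), the range of animal numbers as a covariate, and leaving out libraries. Plots used matplotlib 3.10.9 in Python 3.11.15.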

Additional observations from a re-analysis of the deposited data

Results flagged for a closer look

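In 3 groups of 4 libraries, 1 library lay far from the others for a member, a flag that chance gives in about 1 in 20 groups. With 8 genes in 4 groups, such flags can arise by chance. For Pik3c2g and Gpc5 the other libraries of the group held 3 counts or fewer. Pik3c2g was at 0.567 CPM in female GOF 3 and at most 0.0571 CPM in the other female GOF libraries. Gpc5 was at 0.650 CPM in male GOF 3 and at most 0.0856 CPM in the other male GOF libraries. Cyp2f2 was at 16.7 CPM in male control 2, the library with 8866 CPM of liver genes, and at most 2.98 CPM in the other male controls.

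The effect of GOF differed between males and females for several genes, given as the log2 difference of the male minus the female effect in the interaction of edgeR's fit. It was -6.43 for Mgat4c and -5.23 for Cdh13, values that belong to the reason for choosing them and are a description. Among related genes it was -2.21 for Mgat5b, -1.89 for Cdh4, -1.47 for Cdh2, -1.42 for Gpc6 and -0.87 for Gpc1, and 1.09 for Thrb and 1.05 for Nr1h4, all past an adjusted p of 0.05, as 4.21% of all tested genes were. The call for Gpc1 was lost in 13 of 26 alternatives, that for Thrb in 6 and that for Mgat5b in 2 of 25. Those for Cdh4 and Nr1h4 were lost without female controls 1 and 3 and male control 2 (edgeR adjusted p 0.118 and 0.122).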

How the results depend on the processing

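No paired analysis was possible because the labels give no replicate numbers; the numbers used follow the order of the accessions. The interaction of Cyp2f2, -2.29 on the log2 scale, turned to 0.55 with limma on log2(FPKM + 1), with and without the filter, and Akr1d1 in GOF males turned from -4.88 to 1.02 without male control 2, alone or with female controls 1 and 3, and ran from -6.50 to 1.02 with 1 library left out; the cause was not tested. Over all genes, calls for GOF against control in females numbered 7218, or 4554 without those 3 libraries, and 5709 to 7466 with 1 library left out at a time; in males they numbered 6724 (5215 to 6711). Between the sexes in controls there were 4266 calls, 1648 without the 3 libraries, 1311 with the range of animal numbers as a covariate and 2650 to 4881 with 1 library left out, the fewest without female control 3. In GOF there were 5394, 1336 with that covariate and 4243 to 5660. The interaction had 766: 440 with the covariate, 1466 with DESeq2, 408 without a filter, 407 with limma without a filter, 175 without the 3 libraries and 377 to 953 with 1 left out. Higher calls made up 48.0% in females, 41.1% in males and 37.9% in the interaction. With limma on log2(FPKM + 1) these became 60.7%, 61.3% and 48.8%, and with upper-quartile factors males were at 51.2% and the interaction at 62.6%. The median gene of GOF males moved by 0.11 with limma on log2(FPKM + 0.1). Requiring 10 counts in every library removed members that are near 0 in a group. Depth limits statements on groups at the floor.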
